A study of Rattus norvegicus with 59 samples.

Results

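The complement genes C1s, C2, Cfb, Cfd, C3, C5, C6, C9 and Cfi were followed in rat liver after a single exposure to cadmium (Cd) or chromium (Cr). These 9 genes, of 14863 gene symbols on the array, were chosen by name as components of the complement cascade that the liver makes. They were chosen with earlier results of these data known. All 11 array probe sets whose annotation names one of them were read. Expression was measured on 59 arrays, 1 per liver, of male Sprague-Dawley rats given a single intraperitoneal injection. Exposed rats received CdCl2 at 1.25 mg/kg or Na2Cr2O7 at 20 mg/kg, the doses of the labels (the Cr dose is not settled between labels and methods), and controls received the sterile saline in which the metals were given. Livers were taken on day 1, 3 or 7. Each metal had its own controls, 5 on each day, against 4 livers on day 1 and 5 on days 3 and 7 for Cd and 5 on each day for Cr. Whole liver RNA mixes all cell types of the organ, and each metal was given at a single dose on these arrays. The deposited values are log2 signals, so a difference of 1 is a doubling.

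Complement is a cascade of plasma proteins that recognise foreign or damaged surfaces. The classical and lectin pathways start from recognition molecules whose serine proteases cleave C4 and C2, and the alternative pathway is built from C3 and factor B. All of them cleave C3, and cleavage of C5 then starts the assembly of C6, C7, C8 and C9 into a pore in the target membrane. Hepatocytes are the main source of most of these proteins in plasma, and several of the genes are known acute phase genes that respond to interleukin-6 and interleukin-1.

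The genes C1s, Cfd, C3, C5, C6, C9 and Cfi, 7 in all, have 1 probe set each. C2, which supplies the protease of the classical and lectin C3 convertase, and Cfb, factor B, which does so in the alternative pathway, have none of their own. All 4 of their probe sets are annotated to both genes, which neighbour each other on chromosome 20 with 0 genes between them. The brightest of these, 1389470_at, is given below as the Cfb/C2 signal, and C2 and Cfb cannot be told apart. Counts below are therefore over 8 readouts. No level of one probe set is compared with that of another, since probe sets bind their targets with different strength.

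C5 had the largest called rise after Cd and Cfd the only called fall after Cd. C3, not called against same-day controls after either metal, is the protein on which the pathways converge. The promoters of these 3 members are shown. They are the 250 bases before the start of the gene in the RefSeq annotation of GRCr8, written 5′ to 3′ on the strand of the gene, which is the minus strand for all 3 of them: chr9:2201340-2201589 for C3, chr3:38759469-38759718 for C5 and chr7:10465497-10465746 for Cfd. Capitals mark a match to a motif of C/EBP (TTGCNNAA) in C3, and to the consensus of HNF1, a liver transcription factor, in C5.
C3: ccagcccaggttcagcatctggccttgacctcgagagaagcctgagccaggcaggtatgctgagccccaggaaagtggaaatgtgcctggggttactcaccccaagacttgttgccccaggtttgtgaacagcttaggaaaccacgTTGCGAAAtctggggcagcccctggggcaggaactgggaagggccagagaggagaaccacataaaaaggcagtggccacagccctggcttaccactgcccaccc
C5: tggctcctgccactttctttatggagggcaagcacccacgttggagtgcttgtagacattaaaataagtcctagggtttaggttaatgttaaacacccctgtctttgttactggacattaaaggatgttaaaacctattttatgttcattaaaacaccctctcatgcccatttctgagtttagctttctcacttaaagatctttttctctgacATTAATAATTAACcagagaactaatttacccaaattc
Cfd: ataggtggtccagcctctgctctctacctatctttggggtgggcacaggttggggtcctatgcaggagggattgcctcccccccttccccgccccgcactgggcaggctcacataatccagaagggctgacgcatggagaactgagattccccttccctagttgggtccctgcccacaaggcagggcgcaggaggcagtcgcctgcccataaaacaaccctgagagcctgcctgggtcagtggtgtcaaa

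The promoters of C6 and Cfi were matched as well and were searched in the same way on both strands. No promoter was found for C1s, C2, Cfb or C9, which were not searched. The C3 match ends 97 bases before the start of the gene and the C5 match 25 bases before it. C6 held a C/EBP match and Cfi a match to the interferon-stimulated element (ISRE, AAANNGAAA), while Cfd held none of the 5 motifs searched. The same window held a C/EBP match in 9.22% of all 33469 promoters, an ISRE match in 10.3%, a STAT match (TTCNNNGAA) in 7.67%, an NF-kB match in 3.54% and an HNF1 match in 0.0149%, that is in 5 promoters. A match is a description of the letters and no evidence of binding.

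On day 1 after Cd, the signals of C5, C9, Cfb/C2 and C1s were higher than in same-day controls and that of Cfd was lower. C5 was 1.68-fold, C9 1.53-fold, Cfb/C2 1.42-fold and C1s 1.40-fold higher, and the measured signal of Cfd was 4.24-fold lower. A readout is called where the adjusted p of the limma fit over all probe sets is 0.05 or less. The 5 called readouts (62.5% of 8) stand beside 11.7% of the 31042 probe sets tested. The median difference was 0.38 over the 8 readouts and -0.01 over all probe sets. Since the members were chosen with earlier results of these data known, these shares are a description and not a test of the set. After Cr on day 1 the call was made for 1 of 8 readouts, lower, beside 25.9% of all probe sets.

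**Figure D1:**
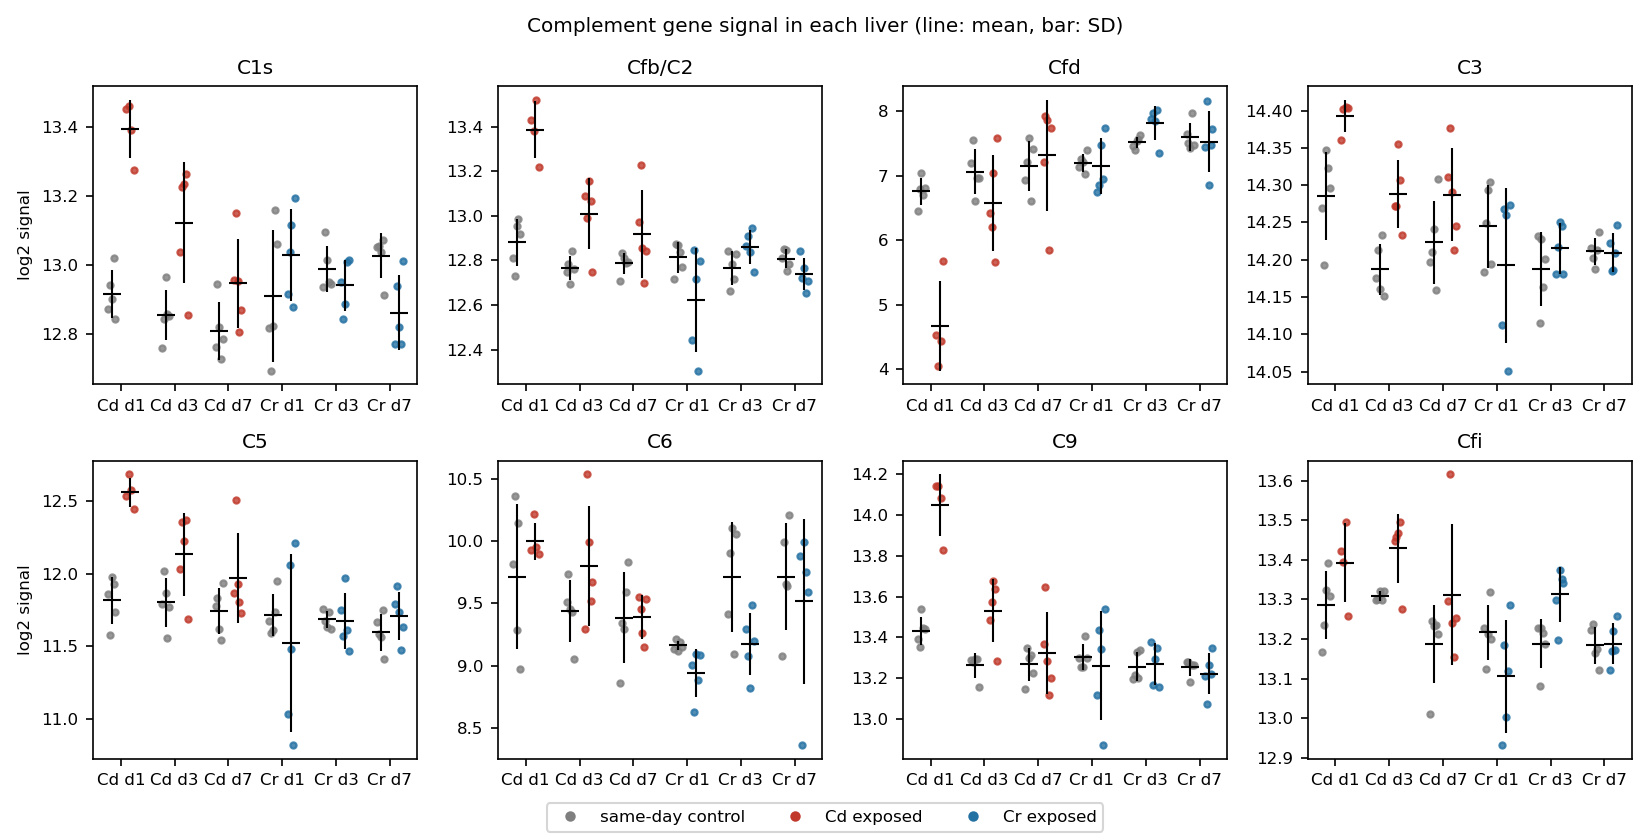
Log2 signal of the 8 complement readouts in each of 59 livers, by metal and day after injection (d1, d3, d7); each panel has its own vertical scale, points are livers, horizontal lines are group means and vertical bars the SD. On day 1 all 4 Cd exposed livers lie above the controls for C1s, Cfb/C2, C3, C5 and C9 and below them for Cfd. C3 was not called on that day, and the share of all probe sets that separate in this way was not counted.

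C1s is the protease of the first complement component that cleaves C4 and C2. Its log2 signals on Cd day 1 were 12.87, 12.94, 12.90, 13.02 and 12.84 in the controls and 13.45, 13.46, 13.39 and 13.28 in the exposed livers. The groups did not overlap, and the liver nearest to the controls was exposed replicate 5. The difference was 0.48 (SE 0.07, adjusted p = 2.36e-05). On Cd day 3 the exposed livers gave 13.04, 13.23, 13.24, 13.26 and 12.86 against 12.76, 12.84, 12.96, 12.86 and 12.85. All 5 were above the control mean, replicate 5 lay inside the control range, and the difference of 0.27 (SE 0.07) missed the threshold (adjusted p = 0.0616). It was called without that liver (0.34, adjusted p = 0.00346), with controls pooled over the 3 days (0.26, adjusted p = 0.0109), and with the replicate number as a block (0.27, adjusted p = 0.0288). Of the 10 livers of that day left out in turn, 9 left it uncalled, with an adjusted p in limma of up to 0.235. On Cd day 7 the difference was 0.14 (adjusted p = 0.741). After Cr the C1s differences were 0.12, -0.05 and -0.17 on days 1, 3 and 7, none of them called, although all 5 Cr livers of day 7 lay below their control mean.

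The Cfb/C2 probe set 1389470_at read 12.81, 12.73, 12.95, 12.99 and 12.92 in the Cd day 1 controls and 13.43, 13.38, 13.52 and 13.22 in the exposed livers. The groups were separate, with a difference of 0.51 (SE 0.08, adjusted p = 5.91e-05). The other shared probe sets rose too, 1383391_a_at by 0.52 (SE 0.15, adjusted p = 0.0247), 1383392_at by 0.63 (SE 0.15, adjusted p = 0.0048) and 1393219_at by 0.66 (SE 0.15, adjusted p = 0.00238). In each of the 4 the exposed livers lay above all controls, but the order of the livers differed: replicate 5 was the lowest on 1389470_at at 13.22 and the highest on 1383391_a_at at 10.69. Over all 59 arrays the 4 probe sets correlated with each other at r = 0.599 to 0.913. By Cd day 3 the difference on 1389470_at was 0.24 (adjusted p = 0.181), with 4 of 5 exposed livers above the control mean. Without exposed replicate 5 it was 0.31 and called (adjusted p = 0.027). Of the 10 livers of that day left out in turn, 9 left it uncalled, with an adjusted p in limma of up to 0.477.

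After Cr the same probe set moved the other way on day 1. The controls read 12.72, 12.88, 12.87, 12.84 and 12.77 and the exposed livers 12.44, 12.85, 12.72, 12.31 and 12.80. Replicates 1 and 4 were below every control and the other 3 were within the control range. The difference of -0.19 (SE 0.07) was called (adjusted p = 0.044), and it is the only called readout of Cr day 1. The other shared probe sets differed by -0.11, -0.04 and -0.08 and were not called, and the mean of the 4 differed by -0.10 (adjusted p = 0.573). The call was lost without any of control replicates 2 to 5 or exposed replicates 1 and 4, with the weakest value (-0.11, adjusted p = 0.207) without exposed replicate 4.

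**Figure D2:**
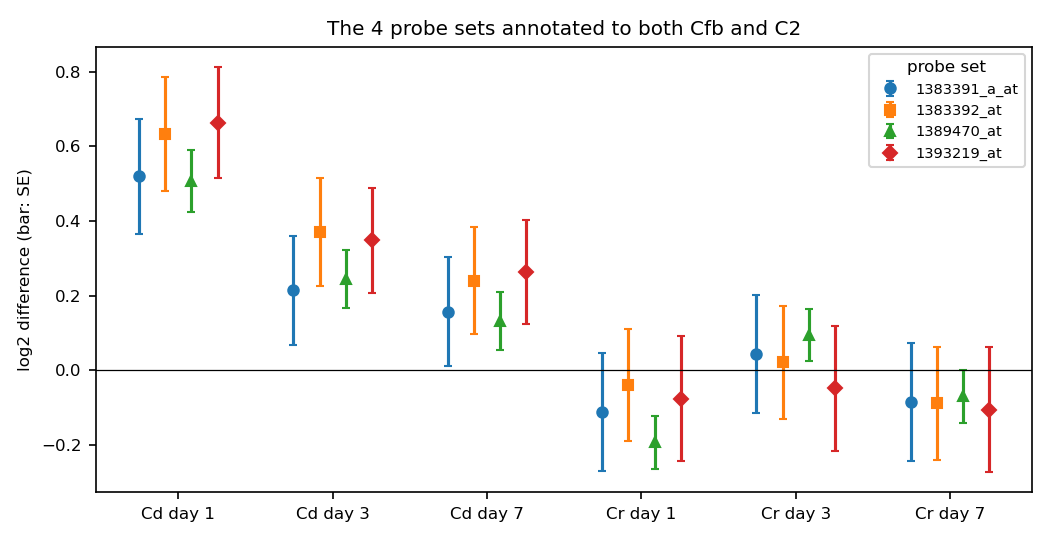
Log2 difference from same-day controls, with its SE as the bar, of the 4 probe sets annotated to both Cfb and C2 for each metal and day. All 4 are above 0 on the Cd days, from 0.51 to 0.66 on day 1, and on Cr day 1 they lie between -0.19 and -0.04.

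Cfd, factor D or adipsin, is the serine protease that cleaves factor B in the alternative pathway. Its log2 signals on Cd day 1 were 6.45, 6.79, 7.04, 6.70 and 6.80 in the controls and 4.53, 4.05, 4.44 and 5.67 in the exposed livers. All exposed livers lay below all controls, and replicate 5 again lay nearest to them. The difference was -2.08 (SE 0.36, adjusted p = 0.000134). The exposed values of replicates 1, 2 and 4 lay below the median log2 signal of their own arrays (5.38 or above), and no detection call was used, so it is not known whether they were above background and the fold is that of the measured signal only. On Cd day 3 the exposed livers spread from 5.66 to 7.58 around controls of 6.60 to 7.56, with a difference of -0.48 (SE 0.34, adjusted p = 0.719), and on Cd day 7 from 5.85 to 7.92 with a difference of 0.16 (adjusted p = 0.961). The change of the effect between Cd days 1 and 3 was -1.60 (SE 0.50, adjusted p = 0.056), which misses the threshold, and it passed it without exposed replicate 5 of day 1 (-1.94, adjusted p = 0.0128), exposed replicate 4 of day 3 (-1.83, adjusted p = 0.0231) or control replicate 2 of day 3 (-1.73, adjusted p = 0.0478), and with the replicate number as a block (-1.54, adjusted p = 0.0215). After Cr the differences of Cfd were -0.05, 0.29 and -0.07 on the 3 days, none of them called.

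**Figure D3:**
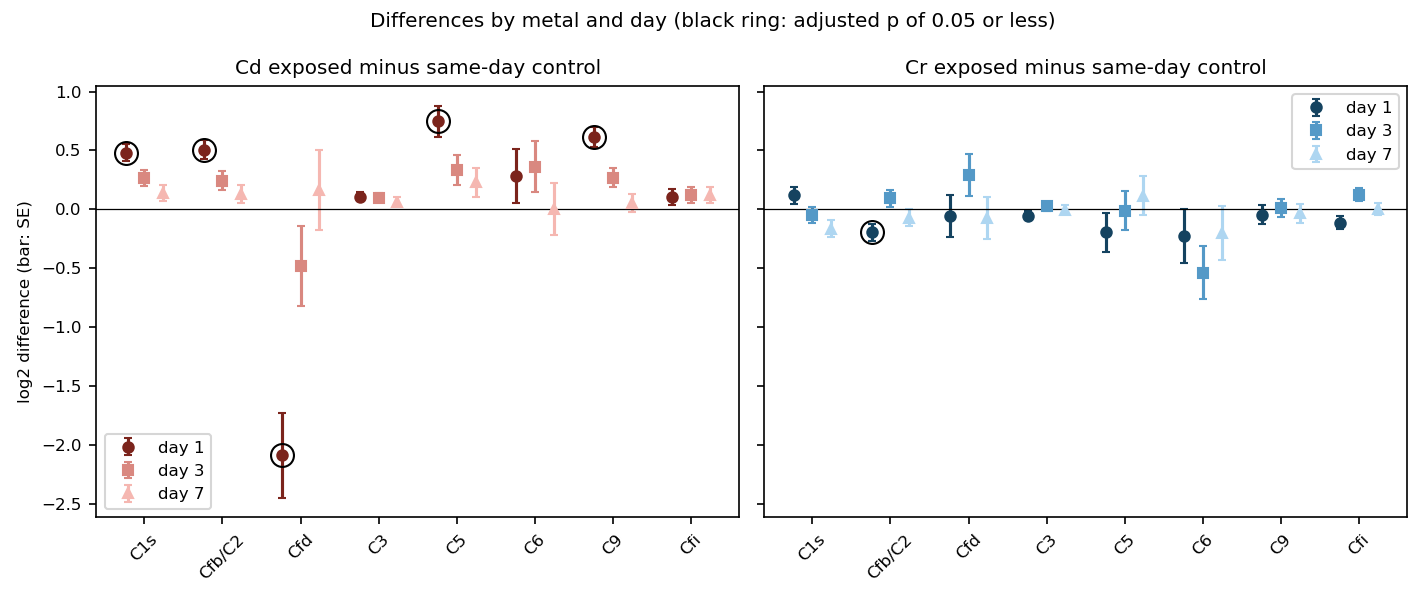
Log2 difference from same-day controls of the 8 readouts on days 1, 3 and 7, Cd on the left and Cr on the right; bars are SE, and black rings mark an adjusted p of 0.05 or less. On Cd day 1 there are 5 rings, from -2.08 for Cfd to 0.75 for C5, and on the Cr side there is 1, Cfb/C2 on day 1.

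The fall of Cfd stood beside a fall of Kupffer cell markers. Kupffer cells are the resident macrophages of the liver. Of 12 listed markers the 9 measured were all lower on Cd day 1, beside 5.33% of all probe sets, with a median difference of -3.23. Their mean log2 level was 4.85 to 7.61 in the exposed livers and 8.55 to 8.98 in the controls. Clec4f, a lectin of Kupffer cells, read 6.08, 5.26, 5.61 and 8.48 in exposed replicates 1, 2, 4 and 5 and at least 9.75 in every control. The liver with the highest Cfd of the exposed group was thus also the one with the highest Clec4f. On Cr day 1, where Cfd differed by -0.05, 0 of the 9 markers were lower and 1, Cd163, was higher by 0.54. In whole tissue, fewer cells of a type and less RNA per cell cannot be told apart, and the part of the Kupffer cell markers in the Cfd result was not tested.

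Cfd is also known as a gene of fat cells. Of 6 listed adipocyte markers 5 were measured, none was lower on Cd day 1, and Fabp4 was higher by 1.17. The mean level of these 5 was 5.67 to 5.89 in the exposed livers and 5.35 to 5.59 in the controls. The control levels are near the median log2 signal of the control arrays (5.38 to 5.43), where a fall could be missed. The part of fat cells in the Cfd result was not tested. Hepatocyte markers were read for the other members. Of 9 measured, 2 were higher and 4 lower on Cd day 1, with mean levels of 13.78 to 13.92 in exposed and 13.92 to 14.00 in control livers. Of all probe sets, 6.4% were called higher and 5.33% lower on that day. Monocyte and neutrophil markers were higher for 5 of 8 measured, with mean levels of 6.50 to 7.22 against 4.96 to 5.44, and their part in any result here was not tested.

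**Figure D4:**
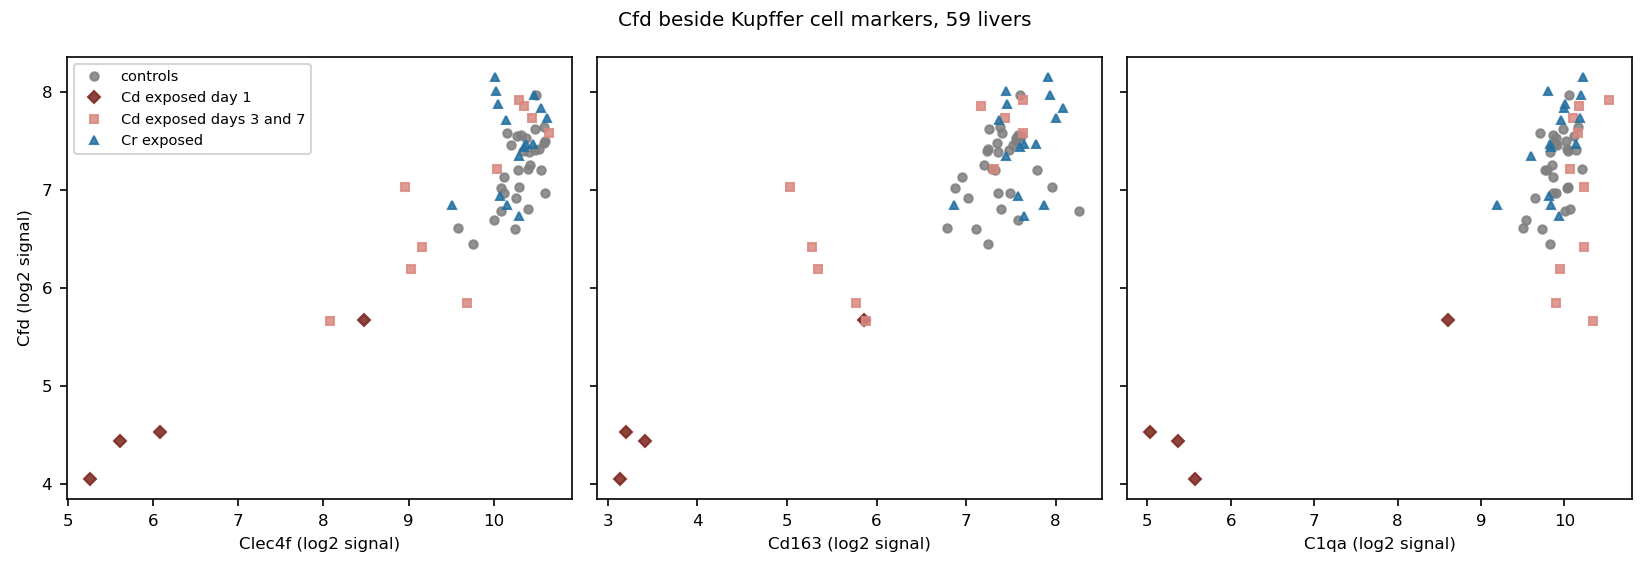
Log2 signal of Cfd against that of 3 Kupffer cell markers, Clec4f, Cd163 and C1qa, in all 59 livers; symbols mark controls of both metals, Cd exposed livers of day 1, Cd exposed livers of days 3 and 7, and Cr exposed livers. The 4 Cd livers of day 1 lie at the lower left of each panel, with replicate 5 (Cfd 5.67) apart from the other 3, and 4 Cd livers of day 3 also lie below all controls for Clec4f and Cd163. So do 1 Cr liver of day 7 for Clec4f and C1qa and 1 Cd liver of day 7 for Cd163.

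C3, the component on which all pathways converge, moved little. On Cd day 1 the controls read 14.27, 14.19, 14.35, 14.32 and 14.30 and the exposed livers 14.36, 14.40, 14.41 and 14.40. All exposed livers were above all controls, yet the difference of 0.11 (SE 0.04) missed the threshold (adjusted p = 0.0796). It was called with pooled controls (0.16, adjusted p = 0.00146) and when dim probe sets were left out before adjustment (adjusted p = 0.0346). The exposed livers of Cd day 3, 14.27, 14.27, 14.36, 14.31 and 14.23, were again all above the controls, at 14.18, 14.21, 14.16, 14.23 and 14.15, with a difference of 0.10 (adjusted p = 0.287). C3 is close to the top of the range of this array, whose brightest value was 14.89. The Cr differences were -0.05, 0.03 and -0.0017 with no call.

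C5 is cleaved to the inflammatory peptide C5a and to C5b, the seed of the membrane pore. The Cd day 1 controls read 11.86, 11.57, 11.98, 11.93 and 11.74 and the exposed livers 12.54, 12.69, 12.58 and 12.44, without overlap. The difference was 0.75 (SE 0.13, adjusted p = 0.000218). On Cd day 3 the exposed livers read 12.03, 12.36, 12.23, 12.37 and 11.69, and 4 of 5 were above the control mean of 11.80, with a difference of 0.33 (SE 0.13, adjusted p = 0.318). On Cd day 7 the difference was 0.23 (adjusted p = 0.776). The Cr livers of day 1 had the widest spread of C5 of any group, 11.03, 12.06, 11.48, 10.82 and 12.21 (SD 0.61, n = 5), around controls of 11.59 to 11.95, so that 3 lay below every control and 2 above. Their mean difference was -0.19 (adjusted p = 0.424).

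C9 polymerises to form the wall of the pore. It read 13.39, 13.35, 13.54, 13.44 and 13.44 in the Cd day 1 controls and 14.14, 14.15, 14.09 and 13.83 in the exposed livers. The groups were separate, with a difference of 0.62 (SE 0.08, adjusted p = 4.76e-06), the smallest adjusted p of the 8 readouts. The group mean of 14.05 (SD 0.15) was the highest of all 12 groups, followed by Cd exposed livers of day 3 at 13.53 (SD 0.16) and Cd controls of day 1 at 13.43 (SD 0.07), and the other 9 means lay between 13.22 and 13.32, an order that is not resolved at SDs of 0.04 to 0.27. On Cd day 3 the exposed livers read 13.49, 13.57, 13.68, 13.64 and 13.28 against controls of 13.15 to 13.29, so that replicate 5 alone lay in the control range. The difference of 0.27 (adjusted p = 0.131) became 0.33 and was called without replicate 5 (adjusted p = 0.0221). Of the 10 livers of that day left out in turn, 9 left it uncalled, with an adjusted p in limma of up to 0.39. After Cr the differences were -0.04, 0.01 and -0.03.

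C6, which joins C5b in the forming pore, varied widely within groups (SD 0.04 to 0.66) and showed no call. Its Cd day 1 controls ranged from 8.97 to 10.36 and the exposed livers from 9.89 to 10.22, with a difference of 0.28 (SE 0.23, adjusted p = 0.546). On Cr day 1 the controls read 9.14, 9.21, 9.12, 9.19 and 9.15 and the exposed livers 9.01, 8.63, 9.09, 8.88 and 9.09, all below the controls, with a difference of -0.22 (SE 0.23, adjusted p = 0.51). The Cr controls of days 3 and 7 had higher C6 means, 9.71 on both days, than those of day 1 at 9.16. Against controls pooled over the days, the Cr day 1 difference was -0.59 and was called (adjusted p = 0.0221). On Cr day 3 all 5 exposed livers were below the control mean, with a difference of -0.54 (adjusted p = 0.627).

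Cfi, factor I, is the protease that inactivates C3b and C4b and so restrains the cascade. Its Cd differences were 0.11, 0.12 and 0.12 on days 1, 3 and 7, with 3 of 4, 4 of 5 and 4 of 5 exposed livers above the control mean, and none was called (adjusted p = 0.412, 0.578 and 0.765). On Cr day 1 the exposed livers read 12.93, 13.19, 13.00, 13.12 and 13.29 against 13.23, 13.12, 13.21, 13.32 and 13.20, a difference of -0.11 (adjusted p = 0.123). On Cr day 3 all 5 exposed livers were above the control mean, with a difference of 0.13 (adjusted p = 0.621). The change of the effect from Cr day 3 to day 1, -0.24 (SE 0.07), was called (adjusted p = 0.0354) although neither day was. It is 1 of 8 readouts called, beside 11.4% of all probe sets, and the call was lost without any of 9 of the 20 livers, with the weakest value (-0.19, adjusted p = 0.0886) without exposed replicate 1 of day 1. The other 8 were control replicates 1 and 4 and exposed replicate 3 of day 1, and control replicates 2 and 5 and exposed replicates 3, 4 and 5 of day 3.

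The later days held few calls in any gene. The shares given below are of probe sets called at the adjusted threshold. The share of all probe sets at an unadjusted p below 0.05 was not counted, so the unadjusted counts have no share beside them. On Cd day 3, 0 of 8 readouts were called by limma, beside 0.638% of all probe sets called, and 5 readouts had an unadjusted p below 0.05. All of the readouts but Cfd had a positive difference on that day, between 0.10 and 0.36. On Cd day 7, 0 were called and 0 had an unadjusted p below 0.05, beside 0.0129% of probe sets. After Cr, 0 were called on day 3 and 0 on day 7, where 2 and 1 had an unadjusted p below 0.05, beside 0.00322% and 0.119% of probe sets. The change of the Cd effect from day 1 to day 3 was called for 0 of 8, with 5 at an unadjusted p below 0.05, beside 5.24% of probe sets. For day 3 against day 7 the count was 0 after Cd and 0 after Cr, with 0 at an unadjusted p below 0.05 after either metal, beside 0% and 0.00322% of probe sets. Among the controls alone, 0 readouts were called between days 1 and 3 or between days 1 and 7 in either metal, where few probe sets of the 31042 were called at all (143 and 107 among the Cd controls, 6 and 225 among the Cr controls).

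The effects of both metals were compared directly, each against its own controls, with the caution that their doses differ. On day 1, 6 of 8 readouts differed, beside 11.8% of all probe sets, again a description of members chosen with earlier results known. The Cd effect exceeded the Cr effect by 0.94 (SE 0.22, adjusted p = 0.00271) for C5, by 0.70 (SE 0.11, adjusted p = 1.29e-05) for Cfb/C2, by 0.66 (SE 0.12, adjusted p = 9.47e-05) for C9 and by 0.36 (SE 0.10, adjusted p = 0.0138) for C1s. For Cfd the effect of Cd was lower by 2.03 on the log2 scale (-2.03, SE 0.41, adjusted p = 0.000464). For C3 it was higher by 0.16 (SE 0.05, adjusted p = 0.0386), although neither metal alone passed for C3. The C3 call was lost without any of 10 of the 19 livers: Cd control replicates 1 and 2, Cd exposed replicates 2, 4 and 5, Cr control replicates 2, 3 and 4 and Cr exposed replicates 1 and 4, the last giving 0.12 (adjusted p = 0.13). Of the other shared Cfb/C2 probe sets, 1383392_at (0.67, adjusted p = 0.0361) and 1393219_at (0.74, adjusted p = 0.0272) were called and 1383391_a_at (0.63, adjusted p = 0.0621) was not. The differences of C6 (0.50, adjusted p = 0.4) and Cfi (0.22, adjusted p = 0.0963) were not called. On day 3 the count called was 0 of 8, beside 0.0161% of probe sets called, and on day 7 it was 0 of 8, beside 0.293%. At an unadjusted p below 0.05 there were 3 readouts on day 3 and 1 on day 7. The share of all probe sets at that unadjusted level was not counted.

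Other complement genes give the setting of these readouts on day 1. Of all probe sets, 6.4% were called higher and 5.33% lower after Cd, and 14.7% and 11.1% after Cr. Of 16 listed recognition molecules and proteases 11 were measured, and after Cd 3 were higher and 5 lower, with a median difference of -0.23. The lower ones were led by the subunits of C1q, C1qa (-3.75, adjusted p = 9.5e-08), C1qc (-3.23) and C1qb (-2.77), which macrophages are known to make and which are also on the Kupffer cell list, and by the ficolin Fcna (-2.67). The higher ones were the ficolin Fcnb (1.50), C1r, the partner protease of C1s (0.58, adjusted p = 0.0012), and the mannose-binding lectin Mbl1 (0.39). C1q and its proteases thus moved in opposite directions. After Cr 0 were higher, 3 lower and 8 not called, beside 25.9% of all probe sets called in either direction. The lower ones were the protease Masp2 (-0.62, adjusted p = 0.000252), Mbl1 (-0.58) and Mbl2 (-0.56), all of the lectin pathway. Masp1, Colec11, Fcna and Fcnb, measured genes of the same pathway, were not called after Cr. Mbl1 was therefore called higher after Cd and lower after Cr, and the difference between the metals was 0.97 (SE 0.16, adjusted p = 2.93e-05).

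The 3 measured subunits of C8, which binds before C9, were lower after Cr, beside 11.1% of all probe sets. The differences were -0.66 for C8b (adjusted p = 2e-06), -0.39 for C8g and -0.23 for C8a. After Cd, C8a was higher (0.37, adjusted p = 0.0018), C8g lower (-0.22, adjusted p = 0.0325) and C8b not called. For C9 and C5 the Cr differences were -0.04 (SE 0.08) and -0.19 (SE 0.16), neither called, and their differences from those of C8 were not tested. The counts of regulators and receptors that follow stand beside 11.7% of all probe sets called after Cd and 25.9% after Cr. Of 16 listed regulators 11 were measured. After Cd 4 were higher, among them both chains of the C4b-binding protein, C4bpb (0.75, adjusted p = 1.28e-07) and C4bpa (0.53), and the C1 inhibitor Serping1 (0.57), and properdin, Cfp, was lower (-0.71). After Cr 3 were higher, C4bpb (0.50), Cr1l (0.29) and C4bpa (0.23), and vitronectin, Vtn, was lower (-0.15). Of 9 listed receptors 7 were measured, with Itgax (0.91) and Cd93 (0.63) higher after Cd and the C5a receptor C5ar1 (0.61) and Itgb2 (0.48) after Cr.

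**Figure D5:**
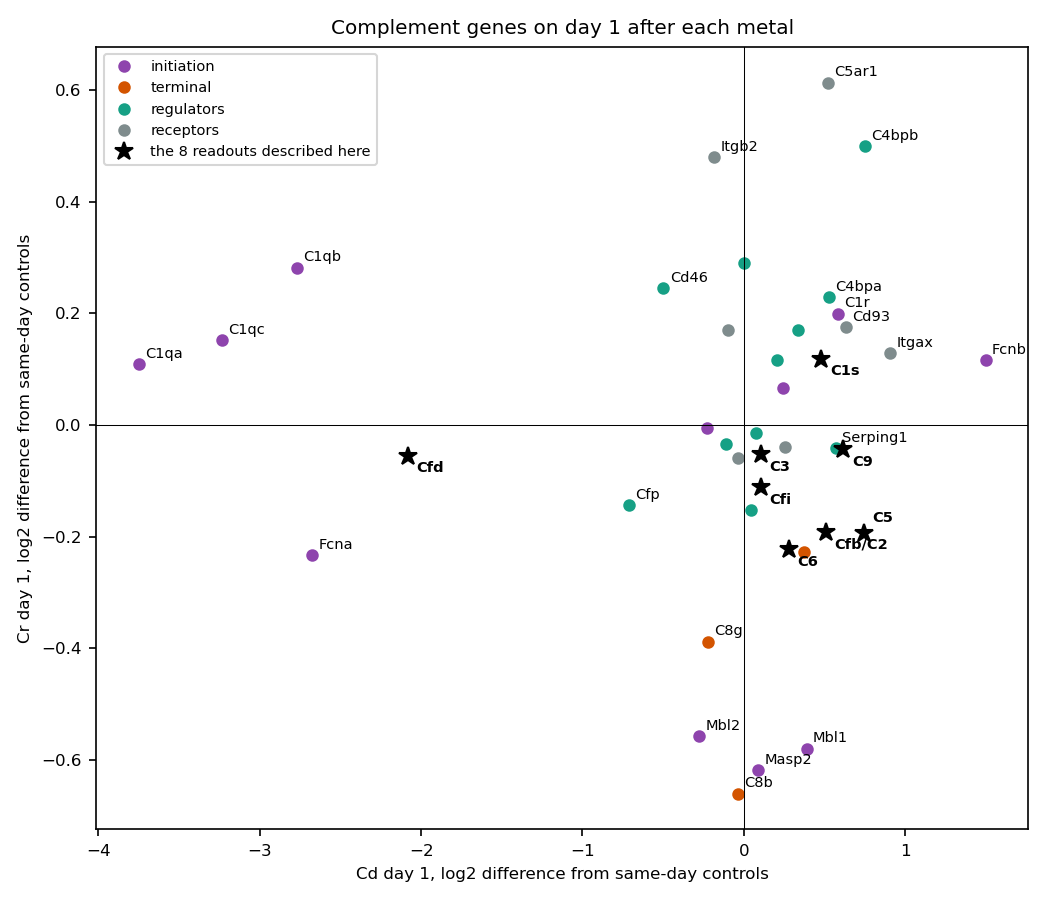
Log2 difference from same-day controls on day 1 after Cd (horizontal axis) and after Cr (vertical axis) for the 8 readouts and the other measured complement genes, coloured by role; other genes are named where they lie away from the centre. C5, C9 and Cfb/C2 lie to the right of 0 at -0.19 to -0.04 on the Cr axis, and Cfd lies far to the left beside the C1q subunits and Fcna.

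Cytokines, their receptors, and signalling and transcription factors known to act on hepatic complement genes were read as well. Of 18 measured of 20 listed, 8 were higher and 0 lower after Cd on day 1, and 7 were higher and 0 lower after Cr. Of all probe sets, 6.4% were called higher after Cd and 14.7% after Cr. The median differences of the list were 0.32 and 0.19. Stat3, which carries the interleukin-6 signal, rose by 1.44 after Cd and by 1.34 after Cr. Cebpd, C/EBP delta, rose by 2.31 after Cd and by 0.93 after Cr, and its metal difference was called (1.38, adjusted p = 0.000324). The interleukin-1 receptor Il1r1 rose by 1.20 after Cd (adjusted p = 1.69e-05) and differed by 0.02 after Cr (adjusted p = 0.947), with a called metal difference of 1.18. The interleukin-6 co-receptor Il6st rose by 0.90 after Cd and by 0.49 after Cr. None of these was called on days 3 and 7.

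The readouts fell into sets that varied together over the 59 livers, given here as a description, since livers of a group share their exposure and day. C9 and Cfb/C2 correlated most closely (r = 0.901 over all livers and 0.801 after the group means were removed), and C3 with Cfb/C2 followed (0.859 and 0.766). C6 correlated with the other readouts except Cfd at 0.265 to 0.421 over all livers. Cfd ran opposite to C9 over all livers (-0.714) but not within groups (0.0469). Of 10584 probe sets with 1 gene symbol and a mean log2 signal of 6 or more, those most like C9 were Serping1 (0.891), the ferroxidase Cp (0.884) and Wfdc21 (0.871). Those most like Cfb/C2 were the transferrin receptor Tfr2 (0.882), Itih4 (0.871) and Serping1 (0.864). Itih4 and Cp, plasma proteins of the liver, were also among the 3 nearest to C3 (Itih4 0.877, Cp 0.808, Tfr2 0.796) and C5 (Cp 0.868, Itih4 0.839, Tfr2 0.815).

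C1s was most like Mpeg1 (0.868), a macrophage gene, followed by C4bpa (0.817) and its partner C1r (0.813). Cfi was most like Itih4 (0.793), Vtn (0.724) and Fgl1 (0.723), and C6 had no close match, with Tmem30a first at 0.566, then Prss32 (0.556) and Csrp1 (0.548). For Cfd the nearest were Clec4f (0.885), Cd163 (0.853) and Axl (0.853). Over 55 livers, without the 4 Cd exposed livers of day 1, Cfd correlated with the 9 Kupffer cell markers at 0.0761 to 0.662. The highest of these was with Clec4f. Over the same 55 livers the markers correlated at -0.243 to 0.586 with C3, -0.355 to 0.584 with C1s and -0.383 to 0.555 with Cfb/C2. The ranges were -0.392 to 0.501 for C5, -0.459 to 0.486 for C9, -0.431 to 0.411 for Cfi and -0.246 to 0.104 for C6. Within groups, with the 4 Cd exposed livers of day 1 kept in, the correlations of Cfd with the 9 markers ran from 0.42 to 0.713. Those of C3 ran from 0.0519 to 0.489, those of C5 from -0.136 to 0.45 and those of C1s from -0.32 to 0.361. The highest were 0.293 for C9, 0.284 for Cfb/C2, 0.122 for Cfi and -0.0131 for C6. With the other 7 readouts the within-group correlations of Cfd ran from -0.0839 to 0.31.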

How the data were processed

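Total RNA from 59 rat livers was hybridised to Affymetrix rat arrays. The deposited values are log2 signals, which the authors made with the RMA procedure (background correction, quantile normalization and probe summary) in Partek software. They were used as deposited, without the 57 array control probe sets. Per the methods, 1 Cd liver of day 1 that held no Cd and clustered with the controls was excluded, and it is not analysed here. The labels give the Cr dose as 20 mg/kg, which is the high dose of the study. The methods name first the medium and then the high Cr dose for these same arrays, and a supplementary table heads the Cr array values as high. The mention of the medium dose remains in conflict with these.

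Each metal was fitted over its 6 groups with limma 3.58.1 (R 4.3.3, intensity trend). Exposed livers were compared with same-day controls, and p-values were adjusted by Benjamini-Hochberg over 31042 probe sets. Metals were compared in 1 fit of 12 groups. The study pooled controls over days and kept probe sets called present. Pooled controls are an alternative here, and no presence filter was applied. Gene symbols came from the array annotation (20826 probe sets with 1 symbol, 436 with several, 9780 with none). The highest correlation between arrays was 0.9956, and 0 pairs were identical. The lowest within a group was 0.9824.

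The members and lists were chosen with earlier results of these data known. Named besides the members were up to 4 called genes per list and metal on day 1, by size, and the 3 genes most correlated with each readout. Further genes named from the lists, and the probe sets discussed beside them, were chosen after their values were seen. The fit was also run on simulated data with independent noise. Its outcome is not given here, and no result above rests on it. Promoters came from RefSeq and were searched with Python 3.11.15. Alternatives were another variance model, filter, normalization, array weights, pooled controls, the replicate number as a block, and leaving out each array. The number of arrays limits the precision.

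Exposed and control livers with the same number were also compared for shared deviations. Of 29 such pairs, 17 correlated above 0.1 (range -0.0824 to 0.28), and every pair did so on Cd day 1 only (0.135 to 0.204). The rule that every pair exceed 0.1 was thus not met over the series, and the number entered as a block only as an alternative, which does not show that the livers were unpaired.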

Additional observations from a re-analysis of the deposited data

Results flagged for a closer look

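Of 96 checks of a readout within a group, 10 held a liver far from the rest, where chance gives about 1 in 20. After Cd these were C3 in exposed replicate 1 of day 1 (14.36, below the other 3), Cfi in exposed replicate 5 of day 3 (13.27) and in control replicate 1 of day 7 (13.01), C9 in control replicate 5 of day 3 (13.15), all low, and C5 in exposed replicate 2 of day 7 (12.51), high. After Cr they were all low: Cfi in control replicate 2 of day 3 (13.08), C9 in control replicate 3 of day 7 (13.18), C1s in control replicate 5 of day 7 (12.91), C6 in exposed replicate 2 of day 7 (8.36) and Cfd in exposed replicate 5 of day 3 (7.35).

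The effect of Cd on day 1 differed from that of Cr by 0.94 for C5, 0.70 for Cfb/C2, 0.66 for C9, 0.36 for C1s, 0.16 for C3 and -2.03 for Cfd, each tested as a contrast of contrasts in limma. The Cr effect on Cfi differed between days 1 and 3 by -0.24.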

How the results depend on the processing

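The 4 rises and the fall of Cd day 1 were called under every alternative without a fold threshold and with any of the 9 arrays left out. With a fold threshold of 1.8, 0 rises remained called on Cd day 1, 0 falls on Cr day 1, and Cfd was still called. The other counts were small, and near the threshold they moved. The plain linear model was fitted with pooled controls only. Readouts called higher on Cd day 3 became 1 with pooled controls, in limma and in the plain linear model. They also became 1 with dim probe sets left out and with both metals in 1 fit, 2 with array weights and 0 to 3 with an array left out. Those called lower on Cr day 1 became 2 with pooled controls in limma and in the plain linear model, and with repeated quantile normalization and array weights. They became 0 without an intensity trend and with both metals in 1 fit, and 0 to 2 with an array left out. The Cr change between days 1 and 3 gave 0 lower without a trend, 2 with the filter, quantile normalization and array weights, and 0 to 2 with an array left out. The Cd change between days 1 and 3 gave 1 higher and 1 lower with the filter, and 0 to 1 of each with an array left out. Between the metals on day 1, 4 to 6 were higher and 1 lower with an array left out. The C3 difference between metals lost its call without a trend (adjusted p = 0.087) and with quantile normalization (adjusted p = 0.133). The causes were not tested.

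The replicate number as a block gave 1 readout higher on Cd day 3 (C1s, 0.27, adjusted p = 0.0288) and 1 higher and 1 lower (Cfd, -1.54, adjusted p = 0.0215) for the Cd change between days 1 and 3, and changed no other count of calls by over 1.5 times. Same-numbered livers correlated at a mean of 0.121, others at -0.0301, and for 19 of the 29 the closest liver was the one of the same number.

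Differences that changed sign were small and none was called. With pooled controls, under both tests, C6 on Cd day 7 was -0.12, and on Cr C5 was 0.0087 and C9 -0.0031 on day 3, and Cfd 0.089 and Cfi -0.008 on day 7. Quantile normalization gave 0.012 for C5 on Cr day 3 and 0.029 for C3 on Cr day 7. Array weights gave -0.041 for C6 and -0.016 for C9 on Cd day 7, and 0.00049 for C3 on Cr day 7. With an array left out, Cr day 7 ranged from -0.011 to 0.0046 for C3, -0.36 to 0.089 for C6, -0.062 to 0.00602 for C9, -0.23 to 0.096 for Cfd and -0.014 to 0.021 for Cfi. Cr day 3 ranged from -0.086 to 0.039 for C5 and -0.015 to 0.041 for C9, Cr day 1 from -0.11 to 0.055 for C9 and -0.20 to 0.047 for Cfd, and Cd day 7 from -0.13 to 0.12 for C6 and -0.024 to 0.11 for C9.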
